A study of Homo sapiens with 8 samples.

Results

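In NT2/D1 cells, 3127 regions held a SOX2 peak and an overlapping NANOG peak but no OCT4 peak of the same line and no peak of any factor in H9 cells. They are called pair regions here. To find them, the peaks of all 6 lists were merged wherever they overlapped by at least 1 bp, which gave 148059 regions. Pair regions made up 2.11% of these. They were thus selected on the presence and absence of peak calls. Merging chained neighbouring peaks, but 3007 pair regions (96.2%) held exactly 1 SOX2 peak and 1 NANOG peak.

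The study mapped SOX2, OCT4 and NANOG by chromatin immunoprecipitation and SOLiD sequencing in 2 human pluripotent lines, with 1 labelled IgG control sample for each. The H9 line consists of embryonic stem cells. NT2/D1 cells derive from a human germ cell tumour and are embryonal carcinoma cells. The labels give no drug, genetic change or time course for either line, and each line is a single established line. Every factor had 1 library per line, so no difference has a replicate check and no test between libraries was made. The intervals given with shares are 95% Wilson intervals, which treat regions as independent and cover counting error only.

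SOX2 is a transcription factor with an HMG box that bends DNA in the minor groove, and NANOG is a homeodomain factor. In pluripotent cells SOX2 is best known for binding next to OCT4 on composite sox-oct elements, and NANOG is often found at the same enhancers. The trio maintain their own genes and many developmental regulators lie close to their sites. SOX2 and NANOG without OCT4 is a less described combination, and it is the combination of calls by which these regions were chosen.

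The peak calls that chose the regions also produced their tag counts, folds and scores, so these values are given only as a description. For NT2/D1, the OCT4 and NANOG libraries carry each other's factor in the source name, while title and description give one reading, which is used here. Under the exchanged reading the same 3127 regions would hold SOX2 and OCT4, and the rule would select 1032 other regions. SOX2 and NANOG peaks shared a single IgG control, whereas OCT4 peaks had a different one, and which of them is the labelled IgG sample of NT2/D1 was not worked out. The part of that control in the overlaps was not tested. The shared control held 2937004 unique tags of 17173085 (17.1%), which left 7.89 SOX2 tags and 6.70 NANOG tags for each unique control tag. For OCT4 that ratio was 1.58. The unique tags were 23160564 for SOX2, 19669139 for NANOG and 10218752 for OCT4 in NT2/D1, against 54046559 to 77649240 in H9. The absence of an OCT4 peak therefore rests on the shallowest library, and less depth cannot be told apart from less binding. The NT2/D1 OCT4 list was the longest of the 6, with 46169 peaks, a median of 7 tags and a lowest count of 5 tags. Its median deposited false discovery rate (FDR) was 15.35%, beside 2.15% in the NT2/D1 SOX2 list and 2.59% in the NANOG list. The length of the OCT4 list thus does not make up for its depth. The NT2/D1 SOX2 and NANOG lists held 38423 and 34208 peaks, with a lowest count of 8 tags in each.

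Few pair regions lay on a promoter, so sequence can be shown for only a few of them, to let a reader see which letters lie near a start that a pair region overlaps. The peaks are given in hg19, and the sequence of the peaks themselves was not used here. A pair region overlapped the listed start of 27 genes at 25 sites, and 14 of these genes had a single RefSeq promoter entry (GRCh38.p14, from 250 bases before to 50 bases after the start). S100A3 encodes a calcium-binding S100 protein. LINC00112 is a long non-coding RNA. LRRC52 encodes a leucine-rich repeat protein that acts as an auxiliary subunit of potassium channels. In the first and the second both peaks spanned the start site. In the third they did not both do so, and it was added because it held a match. The stretches were not placed against the hg19 peaks, so a marked match need not lie inside a pair region. Capitals mark a match to CATTGT, the core that SOX proteins bind, searched on both strands.
S100A3: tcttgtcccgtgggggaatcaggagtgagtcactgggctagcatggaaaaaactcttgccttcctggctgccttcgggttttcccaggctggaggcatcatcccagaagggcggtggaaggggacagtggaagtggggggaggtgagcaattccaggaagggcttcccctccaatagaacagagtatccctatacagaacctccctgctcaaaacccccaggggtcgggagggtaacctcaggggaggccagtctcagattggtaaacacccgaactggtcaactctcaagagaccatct
LINC00112: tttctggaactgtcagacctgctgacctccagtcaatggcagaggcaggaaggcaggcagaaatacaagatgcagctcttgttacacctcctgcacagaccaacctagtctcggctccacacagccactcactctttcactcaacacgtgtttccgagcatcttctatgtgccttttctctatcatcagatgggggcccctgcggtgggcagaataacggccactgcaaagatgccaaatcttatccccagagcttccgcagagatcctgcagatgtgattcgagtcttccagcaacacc
LRRC52: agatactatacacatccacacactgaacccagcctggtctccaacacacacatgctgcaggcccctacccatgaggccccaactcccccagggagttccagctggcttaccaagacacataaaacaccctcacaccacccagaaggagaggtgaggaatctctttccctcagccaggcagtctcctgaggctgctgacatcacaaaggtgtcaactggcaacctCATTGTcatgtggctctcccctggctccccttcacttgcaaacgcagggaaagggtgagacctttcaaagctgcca
These stretches are chr1:153549209-153549508 on the minus strand, chr21:41716186-41716485 on the plus strand and chr1:165543750-165544049 on the plus strand, all in GRCh38.p14. CATTGT occurred in 2 of the 14 promoters (STPG1 and LRRC52) and in 2503 of all 22114 promoter entries (11.3%). The octamer ATGCAAAT, the textbook OCT4 element, occurred in none of the 14 and in 411 of all entries (1.86%). TAATTA, a core shared by many homeodomain proteins, occurred in 1 of the 14 (STPG1) and in 1165 of all entries (5.27%). A match describes letters only. The S100A3 pair region had 30 SOX2 tags and 13 NANOG tags, the LINC00112 region had 19 and 13, and the LRRC52 region had 9 and 17.

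Most pair regions were small peaks in both lists. The SOX2 peak had a median of 14 tags, with a middle range over regions of 11 to 20 and extremes of 8 and 244. The NANOG peak had a median of 10 tags, with a middle range of 8 to 15 and extremes of 8 and 183. For comparison, the median peak had 11 tags in the whole SOX2 list and 9 in the whole NANOG list, so the pair regions sat slightly above the middle of either list. The deposited fold over background had a median of 6.25 for SOX2 (range 2.83 to 25.5) and 7.04 for NANOG (range 3.25 to 38.7), each equal to the median of its list. Folds take few distinct values at these counts, and 407 pair regions (13.0%) had a SOX2 fold of exactly 6.25. In 2346 regions (75.02%) neither peak exceeded 20 tags, and in 576 (18.4%) neither exceeded 10. At least 30 tags were counted for SOX2 in 241 regions, for NANOG in 97 and for both in 50. The largest tag counts stood in wide peaks of low fold: 244 SOX2 tags at 3.42-fold nearest to FAM72D, and 183 NANOG tags at 3.90-fold nearest to PDE4DIP, both on chromosome 1. Both genes have near-identical copies elsewhere, so these counts are uncertain, and the part of such copies was not tested.

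**Figure D1:**
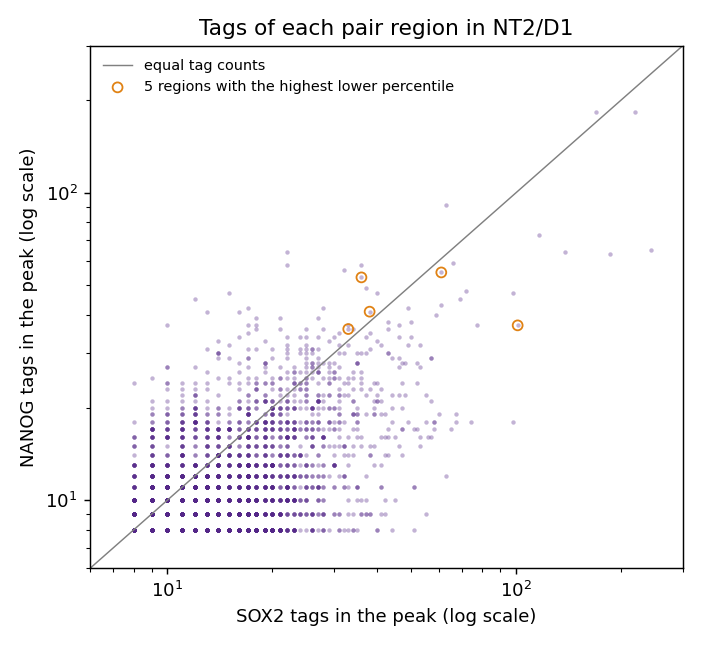
SOX2 tags (horizontal, log scale) and NANOG tags (vertical, log scale) in the peaks of each of the 3127 pair regions of NT2/D1, with darker points where several regions coincide; the grey line marks equal counts and orange circles the 5 regions with the highest lower score percentile. Most points lie below 20 tags on both axes, and the orange circles are not the points with the most tags.

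SOX2 and NANOG tag counts rose together across the pair regions, while the ranks of the peaks by score were only weakly related. Across the pair regions the log2 tag counts of the 2 factors had a Pearson r of 0.537 and the tag counts a Spearman rho of 0.452 (n = 3127). Tags followed peak length for each factor over the same pair regions, with rho of 0.946 for SOX2 and 0.883 for NANOG. The position of each peak within its own list, by score, had a rho of only 0.135 between the factors. These points share the control library and the same stretches of genome, so the correlations are a description. SOX2 had more tags than NANOG in 71.3% of the regions, and the median ratio of SOX2 to NANOG tags was 1.25, near the ratio of 1.18 between the unique tags of the libraries.

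Few pair regions had both peaks near the top of their lists, though strong peaks lay in pair regions more often than weak ones. Both peaks stood in the upper 50% of their lists by score in 1178 regions (37.7%), in the upper 10% in 133 regions (4.25%) and in the upper 5% in 45 regions (1.44%). Among the 470 NT2/D1 SOX2 and NANOG regions without OCT4 that held an H9 peak, 85 had both in the upper 10%. Pair regions took up 8.27% of all SOX2 peaks, from 5.99% in the lowest decile of scores to 13.3% in the highest. They took up 9.36% of all NANOG peaks, from 7.08% in the lowest decile to 14.0% of the highest. The rule asks for an overlap of only 1 bp, and the part of peak length in these shares was not tested. At the limit of the overlap rule, the weakest admitted overlap was 1 bp, at regions nearest to CACNA1E (13 SOX2 tags, 12 NANOG tags), LMX1B (19 and 9) and TDRP (9 and 8). Just outside were peaks that touched without sharing a base, nearest to RAB3B (14 and 10), SMAD6 (26 and 12), MAF (13 and 8) and PLXNA4 (67 and 16). In all, 27 adjacent pairs were kept out by a gap of at most 10 bp and 252 by a gap of at most 100 bp, and 131 of the 3007 simple pairs had an overlap of at most 50 bp.

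Most NT2/D1 regions with SOX2 and NANOG but no OCT4 held no H9 peak of any factor. Of 5556 NT2/D1 regions with SOX2 and NANOG, 3597 had no OCT4 peak, and 86.9% of these (interval 85.8 to 88.0) held no H9 peak. The corresponding share was 59.6% of 1770 regions with NANOG and OCT4 (57.3 to 61.9), 43.4% of 2377 with SOX2 and OCT4 (41.4 to 45.4) and 17.0% of 1959 with all 3 factors (15.4 to 18.8). These intervals do not overlap. All the classes compared hold OCT4, and a high share was not particular to the pair. Beside 38423 SOX2 peaks in NT2/D1, 32105 regions held SOX2 with neither OCT4 nor an H9 peak. Beside 34208 NANOG peaks, 28658 regions held NANOG with neither. Most regions of either factor thus lacked an H9 peak. The share depended on peak strength. It was 80.2% of the 1469 SOX2 and NANOG regions without OCT4 in which both peaks were in the upper 50% of their lists, 61.0% of 218 in the upper 10% (54.4 to 67.2) and 48.4% of 93 in the upper 5% (38.5 to 58.4). Weak pairs were thus the ones that H9 lacked most often.

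An H9 peak was nonetheless close to some pair regions. The nearest H9 peak of any factor lay a median of 17297 bp away, with 160 pair regions (5.12%) within 1 kb of one and 34.3% within 10 kb. The nearest NT2/D1 OCT4 peak lay a median of 12063 bp away, with 189 regions (6.04%) within 1 kb and 43.5% within 10 kb. The last share was 36.7% for SOX2 alone, 39.0% for NANOG alone and 43.2% for the 470 SOX2 and NANOG regions with an H9 peak, the class most like the pair regions.

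The position of the summits, which the rule did not use beyond the overlap of the peaks, set the pair regions apart from that class. In the pair regions the SOX2 and NANOG summits lay a median of 119 bp apart (114 to 127, from order statistics), with a middle range of 48 to 236 bp and a longest distance of 2106 bp. They were within 50 bp of each other in 26.5% of the pair regions and within 200 bp in 68.8%. In the 470 regions with an H9 peak the median was 52 bp (43 to 64). The intervals do not overlap. Outside H9 sites, other combinations had medians closer to that of the pair regions: 112.5 bp between SOX2 and OCT4 summits (99 to 126), 107 bp between NANOG and OCT4 (98 to 118), and 120.5 bp between SOX2 and NANOG where OCT4 was also present (105 to 150).

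The gap between the classes was widest among the strongest peaks. Regions were divided by the lower of their 2 score percentiles, a division chosen after the values were seen. Below the 25th percentile the median distance was 115 bp in 1039 pair regions and 84 bp in 83 regions with an H9 peak (62 to 162), which overlaps the interval of the pair regions (104 to 127). Between the 50th and the 75th it was 119 bp in 701 pair regions and 51 bp in 118 others (35 to 65). Above the 90th it was 147 bp in 133 pair regions (96 to 210) and 21 bp in 85 others (18 to 35). At H9 sites the summits of strong peaks thus nearly coincided, whereas in the pair regions the median stayed between 115 and 147 bp in the 5 classes. Over all pair regions the median peak length was 452 bp for SOX2 and 337 bp for NANOG. In all regions with an H9 peak it was 460 and 384.5 bp. Lengths were not compared within the percentile classes, and the part of peak length in the distances was not tested.

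**Figure D2:**
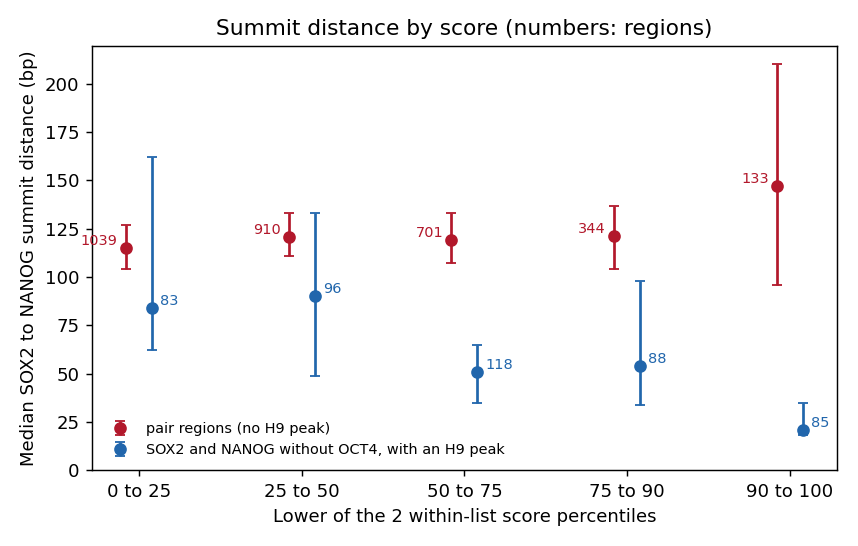
Median distance in bp between SOX2 and NANOG summits (vertical) in 5 classes of the lower score percentile (horizontal), for pair regions (red) and for SOX2 and NANOG regions without OCT4 that hold an H9 peak (blue); bars are 95% order-statistic intervals and numbers beside the points count regions. The red points stay between 115 and 147 bp and the blue points fall to 21 bp in the highest class.

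Pair regions were concentrated on a few chromosomes. Chromosome 1 held 850 of them (27.2%, interval 25.7 to 28.8), beside 15.2% of all NT2/D1 regions outside H9 sites and a mean of 8.32% of the peaks in the 3 H9 lists. Chromosome 7 held 451 (14.4%), chromosome 12 held 416 (13.3%) and chromosome 21 held 141 (4.51%). Relative to the H9 lists these shares were 3.27, 2.57, 2.73 and 3.74 times as high. In the opposite direction, chromosome 6 held 14, chromosome X 14, chromosome 14 held 8 and chromosome 18 held 2. Chromosome 2 (266 regions) and chromosome 3 (196 regions) had shares 1.05 and 0.93 times those of H9.

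**Figure D3:**
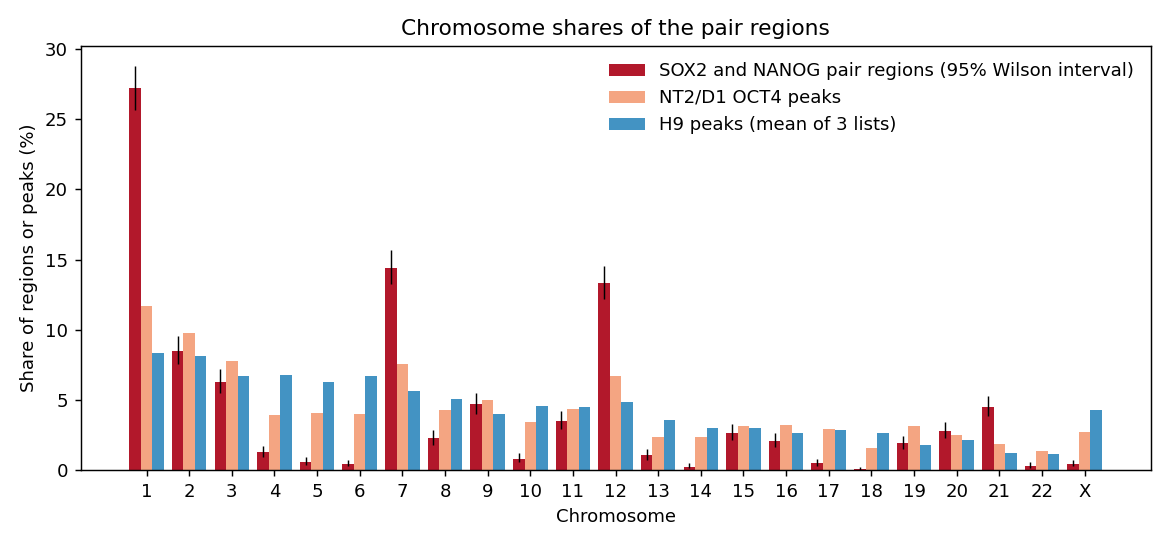
Share in percent (vertical) of pair regions (red, with 95% Wilson intervals), of NT2/D1 OCT4 peaks (orange) and of H9 peaks (blue, mean of 3 lists) on each chromosome (horizontal). The red bars rise above both others on chromosomes 1, 7, 12 and 21 and nearly vanish on chromosomes 6, 14, 18 and X.

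The skew was larger for the pair regions than for regions with either of their factors alone. Chromosomes 1, 7, 12 and 21, grouped after their values were seen, held 59.4% of the pair regions (57.7 to 61.1) and 60.2% of the regions outside H9 with all 3 factors, against 43.8% for SOX2 with OCT4 and 44.3% for NANOG with OCT4. They held 39.2% of the regions with SOX2 alone, 37.7% with NANOG alone and 39.1% of the SOX2 and NANOG regions with an H9 peak, 27.8% of OCT4 peaks and 19.9% to 20.1% of the peaks in the H9 lists. Among SOX2 regions with neither OCT4 nor an H9 peak, 14.1% also held NANOG on these 4 chromosomes (13.5 to 14.7), against 6.72% elsewhere (6.37 to 7.08). Among NANOG regions of the same kind, 16.2% also held SOX2 there and 7.39% elsewhere. Tag counts moved with this difference, in the whole NT2/D1 lists as in the pair regions. The median peak on the 4 chromosomes and elsewhere had 14 and 11 tags in the SOX2 list, 11 and 9 in the NANOG list and 9 and 7 in the OCT4 list. The median pair region had 16 SOX2 and 11 NANOG tags on the 4 chromosomes and 12 and 9 elsewhere. The median H9 peak had the same tag count in both sets of chromosomes in each of the 3 lists. Peaks of the pair regions were also longer on the 4 chromosomes, with medians of 498 bp against 397 bp for SOX2 and 365 bp against 316 bp for NANOG. The part of peak length in the overlaps was not tested. Embryonal carcinoma lines carry extra chromosome copies, gain of 12p being typical of germ cell tumours. The copy number of NT2/D1 was not analysed here and its part in these shares was not tested.

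Within chromosomes the regions were unevenly spread as well. On chromosome 12, 284 of 416 pair regions (68.3%) started before 35 Mb, which is about the short arm. That share was 46.5% for SOX2 peaks, 44.6% for NANOG peaks, 33.1% for OCT4 peaks and 26.9% to 31.0% for H9 peaks. Of all 5 Mb windows, the one from 30 to 35 Mb of chromosome 1 held the most pair regions, 60. Windows at 0 to 5, 5 to 10 and 10 to 15 Mb of chromosome 12 held 59, 57 and 48. The 10 windows with the most pair regions, picked by that count, held 14.9% of them. The same windows held 6.30% of SOX2 peaks, 6.63% of NANOG peaks and 3.69% of OCT4 peaks in NT2/D1, and 1.89% to 2.30% of the peaks in the H9 lists. Another pair region lay within 100 kb of 52.6% of all pair regions and within 10 kb of 15.96%. Spacing was not computed for other classes.

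Pair regions were mostly far from genes' starts, as were the other NT2/D1 classes. The median distance to the nearest listed transcription start site (TSS) was 39873 bp, 44.5% had none within 50 kb, and 114 (3.65%) had none within 500 kb. The median was larger for SOX2 alone (56891 bp) and NANOG alone (47648 bp), both outside H9. It was 60323.5 bp for SOX2 and NANOG regions without OCT4 that held an H9 peak. Classes with OCT4 outside H9 had medians of 26245 to 39967.5 bp. A pair region overlapped a TSS in 25 cases (0.80%, interval 0.54 to 1.18), beside 1.74% of all NT2/D1 regions outside H9 sites. Within 1 kb of a TSS lay 130 (4.16%, interval 3.51 to 4.92), beside 6.32% of all such regions. The share was 12.4% for SOX2 with OCT4 (10.5 to 14.6) and 18.1% for NANOG with OCT4 (15.9 to 20.5), both outside H9, and 8.30% for SOX2 and NANOG with an H9 peak (6.13 to 11.1). It was 2.37% for SOX2 alone and 3.26% for NANOG alone. For OCT4 alone it was 11.8% (11.4 to 12.1). The pair regions thus lay above SOX2 alone and NANOG alone and below each of these classes with OCT4. Within 5 kb the share was 13.1% (11.97 to 14.3), close to the 13.2% of all NT2/D1 regions outside H9 sites.

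**Figure D4:**
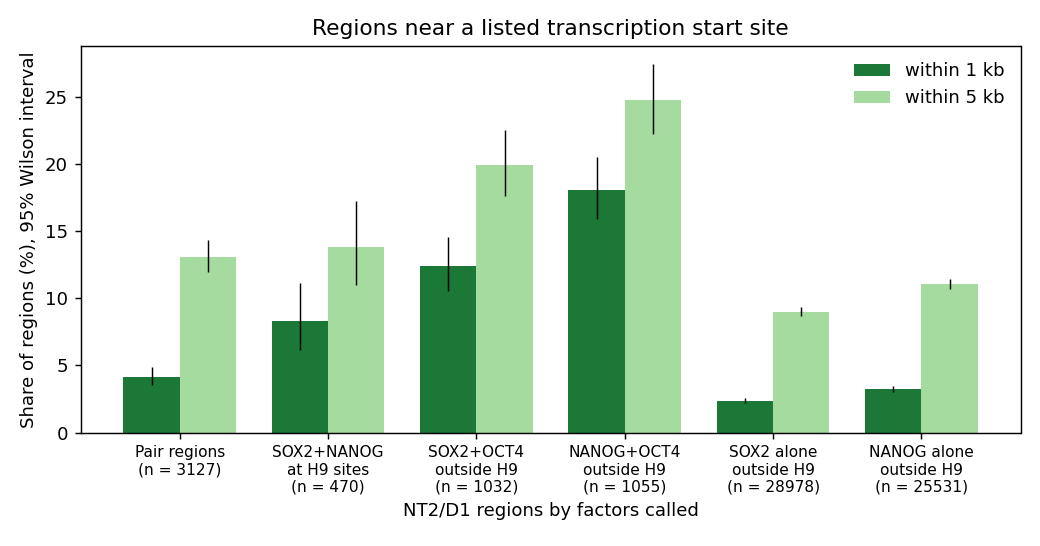
Share in percent (vertical) of NT2/D1 regions within 1 kb (dark) and 5 kb (light) of a listed TSS, by the factors called (horizontal), with 95% Wilson intervals. Pair regions stand at 4.16% and 13.1%, above SOX2 alone and NANOG alone and below the pairs that include OCT4.

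The 15 pair regions whose lower score percentile was highest included 4 each on chromosomes 7 and 12, 2 on chromosome 21 and only 1 on chromosome 1. The highest was chr21:45823244-45824676 (hg19), 49761 bp from the start of TRPM2, a calcium-permeable cation channel. It had 61 SOX2 tags at 10.4-fold and 55 NANOG tags at 14.1-fold. The region chr3:127122865-127123400, nearest to TPRA1, stood out by enrichment: 36 SOX2 tags at 25.5-fold and 53 NANOG tags at 38.7-fold, with summits 15 bp apart. Both folds were the highest of any pair region. ATP6V0E2-AS1 followed with 38 tags at 8.33-fold and 41 at 12.9-fold. By their deposited FDR these were not the most secure calls. The FDR was 31.69% for SOX2 and 28.78% for NANOG in the TRPM2 region, and 29.45% and 50% in the TPRA1 region. Over all pair regions the median FDR was 2.79% for SOX2 and 3.14% for NANOG, and all 15 regions exceeded both medians. FDR rose with score in both lists, so a ranking by score favours peaks of high FDR.

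The other regions of the 15 are named by their nearest gene, which was often far away. ETV6, an ETS family repressor rearranged in leukaemia, had 2 of them: chr12:11971326-11974074 with 98 SOX2 and 47 NANOG tags at 168539 bp, and chr12:11828786-11829944 with 40 and 21. ETV3, a related ETS repressor, had 1 at 195778 bp with 31 and 25 tags and summits 15 bp apart. PTPRN2, a phosphatase-like protein of secretory granules, had 2 neighbouring regions with 52 and 24 tags and with 52 and 28, 456361 bp and 454842 bp from its listed start. The region at NRXN2, a presynaptic adhesion protein, was the only one of the 15 within 1 kb of a start (938 bp), with 44 and 29 tags. ESYT2, which tethers the endoplasmic reticulum to the plasma membrane, had 101 SOX2 tags but 37 NANOG tags. GMPR, a purine nucleotide enzyme, had 31 SOX2 tags at 12.8-fold and 22 NANOG tags at 10.1-fold. The remaining regions of the 15 were nearest to RERGL, HSPA13, LRRK1 and CLECL1. At the other end, the regions of smallest lower percentile lay nearest to PRELP, SLC2A1, ULK4, GOLGA6FP and LINC01138. The PRELP region joined a SOX2 peak of 13 tags at the bottom of its list to a NANOG peak of 19 tags at the 89.4th percentile.

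Counted by gene, 1869 of 19704 listed genes (9.49%) had a pair region within 50 kb of their start, and 407 (2.07%) had one within 5 kb. Of the 1869, 1501 had 1, 280 had 2, 75 had 3 and 13 had at least 4. PDE4DIP, which anchors components of the Golgi and centrosome, and ARMH1 had 6 each. RRP1, a ribosomal RNA processing factor, had 5. Genes with 4 included AIRIM, MATN1, TMEM53, AHDC1, C2CD2, ZBTB21, EPHB6, SPI1 and VWF. Neighbours share regions: all 4 of TMEM53 also count for ARMH1, and C2CD2 and ZBTB21 have 2 in common.

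The regions around these genes ranged from weak to strong. At PDE4DIP the 6 regions had 22, 13, 186, 63, 138 and 169 SOX2 tags and 18, 17, 63, 91, 64 and 183 NANOG tags, in genomic order. The folds of the 4 tallest were low, between 2.83 and 5.38. SPI1, the haematopoietic factor PU.1, had 3 regions within 3 kb of each other, with 10, 10 and 25 SOX2 tags and 37, 14 and 17 NANOG tags. NANOG exceeded SOX2 in the first and the second, the reverse of the usual order. At VWF, the clotting factor of endothelial cells, SOX2 exceeded NANOG in all 4, with 55, 12, 27 and 19 SOX2 tags and 18, 10, 10 and 11 NANOG tags. AIRIM had a region over its start with 28 SOX2 and 21 NANOG tags. MATN1, a cartilage matrix protein, had 2 regions in which both percentiles passed 80.

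Among the core pluripotency genes, 1 of 32 had a pair region within 50 kb (3.13%, interval 0.554 to 15.7), beside 9.49% of all listed genes. The gene was L1TD1, an RNA-binding protein of pluripotent cells, with 3 weak regions of 11, 11 and 12 SOX2 tags and 8, 8 and 12 NANOG tags. POU5F1 (which encodes OCT4), SOX2 and NANOG had none. An NT2/D1 SOX2 and NANOG region with an H9 peak, with or without OCT4, lay within 50 kb of 18 of the 32. The share of all listed genes was 1130 of 19704 (5.73%). Counting only such regions without OCT4, it was 3 of the 32. The regions around L1TD1 lay among 13 NANOG and 9 SOX2 peaks of NT2/D1 near that gene.

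Signalling genes had pair regions at shares whose intervals all include the 9.49% of all listed genes. In the list for Nodal, TGF-beta and BMP signalling, 4 of 30 genes had a pair region (13.3%, interval 5.31 to 29.7). LEFTY2, a secreted Nodal antagonist, had 1 with 26 SOX2 and 16 NANOG tags at 7530 bp from its start and 1 with 8 and 8. CRIPTO, the Nodal co-receptor, had 10 and 9 tags, and TGFB2, a ligand, had 12 and 8. SMAD3, a receptor-activated effector, had 2 regions at or below 9 tags for either factor. Of 30 WNT pathway genes, 5 had one (16.7%, interval 7.34 to 33.6). LRP6, the WNT co-receptor, had the strongest by its weaker peak, with 29 SOX2 and 28 NANOG tags at 8965 bp. WNT3A had 18 and 25 tags at 1760 bp from its start, and 27 and 22 at 39021 bp. WNT5B had 3 regions with 17 to 55 SOX2 tags. WNT7A and FZD10, a ligand and a receptor, had 1 each. In the FGF and ERK list 1 of 20 had any, namely FGFR1, a receptor with 2 regions.

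The 3 lists of developmental regulators gave shares above the 9.49% of all genes, but 2 of the intervals include it. For the neuroectoderm list 4 of 32 had a pair region (12.5%, interval 4.97 to 28.1). SIX3, a forebrain and eye regulator, had 3, with 43, 17 and 12 SOX2 tags and 14, 16 and 10 NANOG tags. POU3F1 had 21 SOX2 and 39 NANOG tags, and LHX2 and NEUROD1 had 1 region each with no more than 17 tags. For mesendoderm it was 2 of 19 (10.5%, interval 2.94 to 31.4), HAND1 and MIXL1, where MIXL1 had 12 and 9 tags at 1789 bp. For trophectoderm it was 5 of 14 (35.7%, interval 16.3 to 61.2), the highest share of the 12 lists and the only one whose interval lay above 9.49%. The members were TEAD4, GATA2, HAND1 and the keratins KRT7 and KRT18. Only TEAD4, a factor of the trophectoderm lineage, was well above the list medians, with 43 SOX2 and 16 NANOG tags at 48017 bp. At GATA2, HAND1, KRT7 and KRT18 neither factor exceeded 13 tags. None of the 5 lay within 5 kb of its start, and 3 of the 5 genes are on chromosome 12. The intervals were not corrected for the comparison of 12 lists. SOX2 and NANOG regions with an H9 peak, with or without OCT4, also lay within 50 kb of 5 of the 14. These need not be the same genes, and the share of all listed genes was 5.73%.

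The remaining lists were near or below the share of all genes. Germ cell genes had 1 of 17, PIWIL1, which acts with piRNAs in the male germ line, with 18 and 15 tags. Chromatin regulators had 3 of 26: the histone demethylases KDM4A (20 and 12 tags) and KDM5B (10 and 9), and the DNA methyltransferase DNMT3A, with 2 regions. Lists of cell types outside the study gave 0 of 16 for hepatocyte genes, which allows up to 19.4% by the interval, 2 of 16 for muscle (MYL2 and MYOG) and 1 of 15 for immune genes (CD4). CD4 had a region over its listed start with 38 SOX2 and 31 NANOG tags, more than any pair region near a core pluripotency gene. With 14 to 32 genes in a list, all intervals but that of trophectoderm include the share of all genes.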

How the data were processed

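The 6 factor libraries were analysed through their deposited MACS peak lists, and the IgG samples only through the totals in the file headers. Each library was called on its own at a p-value cutoff of 0.001, per the file headers. The build is hg19, per the submitters' processing notes; the aligner and the MACS version are not given in the sources used here. Per the file headers, MACS ran with a band width of 2000 for H9 but 200 for NT2/D1. The model fold was 5 for NT2/D1 OCT4 and 3 for the other lists, per the file headers. The authors' tag counts are raw counts per peak. The authors' fold enrichment is a ratio over background. The deposited FDR values are in percent, computed by MACS, per the file headers. The deposited score was taken as 10 times −log10 of the p-value, since its smallest value was 30 in each list. The authors' start, end, length and summit columns give positions.

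Shares, medians and intervals were computed with Python 3.11.15, pandas 2.3.3, numpy 2.4.6 and scipy 1.17.1. The merging step was tested on simulated peaks. Percentiles are of scores within a list. Genes and distances to a start are those the submitters added, with symbols from RefSeq. The text names the genes nearest to the 15 pair regions with the highest lower percentile and to the 5 with the smallest, the 10 genes with the most pair regions (13 with ties, of which 1 is not reported here), and every gene of the 12 lists with a pair region within 50 kb. The rule, the pair regions and the gene lists were chosen with earlier results of these data known. Genes at an edge of the overlap rule, at a start site or with the most tags were named after their values were seen.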

Additional observations from a re-analysis of the deposited data

How the results depend on the processing

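The number of pair regions, 3127, became 1980 when peaks had to overlap by 50% of each, 1333 with all 6 lists cut to their upper 50% by score, 268 with all 6 cut to a score of at least 50, 1465 with all cut to equal length, 1635 at an FDR of at most 5% and 1032 with OCT4 and NANOG exchanged. FDR rises with score in both lists, so that limit removes the strongest peaks. The share without an H9 peak (86.9%) was 85.2% under the 50% overlap, 85.4% with summits within 200 bp, 82.2% in the upper 50%, 58.8% at a score of 50, 80.5% with equal lists, 85.7% without the widest 1% of peaks, 82.5% with H9 peaks within 1 kb barred, 91.8% at the FDR limit and 43.4% exchanged. The share within 5 kb of a start (13.1%) was 10.8% at a score of 50 and 19.96% exchanged. The median summit distance (119 bp) was 76 bp under the 50% overlap, 71 bp with summits within 200 bp, 110 bp at the FDR limit, 138 bp with gaps up to 100 bp joined and 112.5 bp exchanged; the first and the second limit distance by construction. Chromosome 1 (27.2%) held 30.01% in the upper 50%, 29.1% at a score of 50, 29.7% with equal lists, 25.3% at the FDR limit and 17.1% exchanged. Chromosomes 1, 2, 3, 7, 9 and 12 together (74.4%) held 76.5% at a score of 50, 72.5% at the FDR limit and 63.4% exchanged. Core pluripotency genes with a pair region (1) were 2 with equal lists, 3 exchanged and 0 within 5 kb. For the other changes the cause was not tested. No paired analysis was possible because each factor had 1 library per line. Depth limits what the absence of a peak can show: NT2/D1 OCT4 had 10218752 unique tags.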
